A study of Homo sapiens with 12 samples.

Results

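The transcripts described here encode 10 subunits of the transcription factor AP-1 and close relatives: FOS, FOSB, FOSL1, FOSL2, JUN, JUNB, JUND, ATF3, BATF3 and MAFF. They were taken by symbol from the deposited normalized counts, and all 10 were found, among 15459 genes that are listed for both treatments. RNA came from wild-type HT1080 cells, a human fibrosarcoma line of connective tissue origin. Polyadenylated RNA was sequenced in 12 libraries, 3 in each of 4 groups. In the first experiment, cells given 40 nM phorbol 12-myristate 13-acetate (PMA) were compared with untreated controls, numbered 1 to 3 like the treated libraries. In the second, cells given 40 µg/mL concanavalin A (ConA), numbered 1 to 3, were compared with untreated controls of their own, numbered 4 to 6. All 4 groups were seeded in biotin-depleted medium with 10% FBS and moved 3 days later to biotin-depleted medium with 1% FBS, in which treatment lasted 24 h. The labels do not say what makes the libraries of a group separate, so the p-values measure only the spread between these samples, which may be technical.

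AP-1 is a dimer of basic leucine zipper proteins. FOS proteins cannot pair with one another and bind DNA stably only with a partner such as a JUN protein, whereas JUN proteins can also pair among themselves, and the make-up of the dimer sets which sites it binds and how strongly it activates. FOS and JUN are classic immediate early genes, whose transcripts rise and decay fast after a stimulus, while FOSL1 (Fra-1) accumulates later and is abundant in many mesenchymal tumour cells. PMA switches on protein kinase C by taking the place of its natural lipid ligand, and the site that AP-1 binds was first known as the phorbol ester response element. ConA is a lectin that binds mannose-rich glycans and crosslinks the glycoproteins that carry them. ATF3 and BATF3 pair with JUN proteins, and MAFF is a small MAF protein that lacks an activation domain and pairs with CNC factors such as NFE2L2.

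Several of these genes are known to be controlled by AP-1 or ATF factors through sites near their own starts, so the windows from 250 bases before to 50 after each RefSeq gene start (GRCh38.p14) were searched on both strands. The motifs were the AP-1 site TGAGTCA (read TGACTCA on the other strand), the palindrome TGACGTCA that ATF and CREB factors bind, and the variant TGACATCA. FOSL1 and BATF3 had no entry in the table used. The other 8 members had 10 windows, and 5 windows, each of another member, held 1 motif. Among 35116 windows of the same length for all genes, 4.95% held TGAGTCA, 1.85% held TGACGTCA, 2.61% held TGACATCA and 9.15% held any of them. A match is a run of letters and not evidence that a factor binds there. All 5 matches are shown, and a link between them and the responses below was not tested. For the first 4 the 250 bases before the start are printed, and for FOSL2, whose match begins 5 bases past the start, 27 bases around it. All are written 5′ to 3′ on the strand of the gene, with the motif in capitals:
JUN: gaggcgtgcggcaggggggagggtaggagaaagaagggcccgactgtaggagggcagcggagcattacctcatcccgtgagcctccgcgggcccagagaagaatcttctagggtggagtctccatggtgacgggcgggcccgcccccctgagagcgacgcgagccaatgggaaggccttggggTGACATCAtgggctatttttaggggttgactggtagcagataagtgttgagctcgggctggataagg
ATF3: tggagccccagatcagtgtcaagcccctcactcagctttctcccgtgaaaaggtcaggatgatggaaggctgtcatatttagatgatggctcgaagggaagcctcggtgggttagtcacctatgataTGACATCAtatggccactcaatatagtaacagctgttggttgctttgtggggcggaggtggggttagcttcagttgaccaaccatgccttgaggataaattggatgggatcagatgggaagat
JUND: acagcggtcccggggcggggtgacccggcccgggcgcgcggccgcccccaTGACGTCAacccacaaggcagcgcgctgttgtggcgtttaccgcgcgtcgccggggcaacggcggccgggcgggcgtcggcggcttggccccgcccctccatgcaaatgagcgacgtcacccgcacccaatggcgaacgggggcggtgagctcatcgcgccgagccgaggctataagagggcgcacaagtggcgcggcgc
MAFF: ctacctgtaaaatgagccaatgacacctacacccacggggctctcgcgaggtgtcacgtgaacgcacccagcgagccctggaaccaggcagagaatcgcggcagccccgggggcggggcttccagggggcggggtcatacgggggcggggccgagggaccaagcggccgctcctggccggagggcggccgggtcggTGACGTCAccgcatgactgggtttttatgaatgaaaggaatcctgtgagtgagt
FOSL2: gccattgtagTGACTCAtctcgggcag

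The JUN stretch (chr1:58784048-58784297, minus strand) carries TGACATCA with its first base 67 bases before the start. ATF3 (chr1:212565157-212565406, plus strand, upstream of 1 of its annotated starts) carries the same letters 123 bases before the start. JUND (chr19:18281623-18281872, minus strand) carries TGACGTCA 200 bases before the start, and MAFF (chr22:38201744-38201993, plus strand, at 1 of its starts) carries it 54 bases before. The FOSL2 match (chr2:28392852-28392878, plus strand) is TGAGTCA on the opposite strand and so is printed as TGACTCA.

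Values are normalized counts: estimated reads per gene divided by 1 factor per library, not corrected for gene length. Libraries held 33649300 to 45587917 estimated reads, and the 2 experiments were normalized apart, so changes were measured only within each. Changes were tested with limma on log2(normalized count + 1), which slightly understates the change of low genes, and called where the log2 fold change was 1 or more in size and the p, adjusted over all genes tested by Benjamini-Hochberg, was 0.0001 or less. Mesenchymal markers were high in every library (summed normalized counts from 314978 to 522176 over the 9 or 10 listed of 10), no erythroid marker was listed, and no mitochondrially encoded gene was listed. Of 12 T and NK cell markers, all were listed in the PMA experiment and 3 in the ConA experiment. Their sum was 1329 to 1493 in PMA controls, 4557 to 5238 with PMA, 427 to 559 in ConA controls and 4639 to 5454 with ConA, of which IL7R, a cytokine receptor gene, made up most after treatment. Without IL7R it was 1009 to 1145 in PMA controls and 1457, 1827 and 2262 with PMA 1, 2 and 3, against 34.1 to 52.0 in ConA controls and 39.5 to 48.1 with ConA. Of the T cell markers CD3D, CD3E, CD3G, CD247, CD2 and CD5, CD3E stood highest in the PMA experiment. It was at 110 to 125 in controls and 176 to 233 with PMA, above FOSB and BATF3 and below FOS in each library. CD3G was lower, at 33.2 to 41.1 in controls and 44.1 to 76.0 with PMA. CD3E, CD3G and CD247 were higher in every PMA library than in any control, but CD3D, CD2 and CD5 were not. CD3D stood at 73.1, 97.0 and 140 with PMA 1, 2 and 3 against 78.7 to 88.5 in controls. CD5 in PMA 1 was below all controls, and CD2 in PMA 1 lay within its control range. B cell markers, of which 2 of 6 were listed in the PMA experiment and 3 in the ConA experiment, summed to 386 to 491 in PMA controls and 782 to 872 with PMA, and to 209 to 265 in ConA controls and 427 to 443 with ConA. The part of such RNA in the results for these 3 low members was not tested.

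PMA raised 4 members, FOSL1, MAFF, JUNB and FOSB, and ConA raised 3, FOS, ATF3 and BATF3, with no member lowered past both thresholds by either. Of the 15153 genes tested with PMA, 4.03% were called higher and 4.61% lower, and of the 15139 tested with ConA, 5.83% were called higher and 2.88% lower. The median log2 fold change over the 10 members was 0.90 with PMA and 0.85 with ConA, beside 0.003 and -0.002 over all genes tested. At an adjusted p of at most 0.05 with no demand on fold change, 7 members were higher and 2 lower with PMA, where 32.8% and 30.5% of all genes were. With ConA 7 were higher and 3 lower, where 32.8% and 32.5% were. All treated libraries lay on 1 side of all controls for 9 of 10 members with PMA and for all 10 with ConA, which also held for 67.9% and 69.3% of all genes tested.

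**Figure D1:**
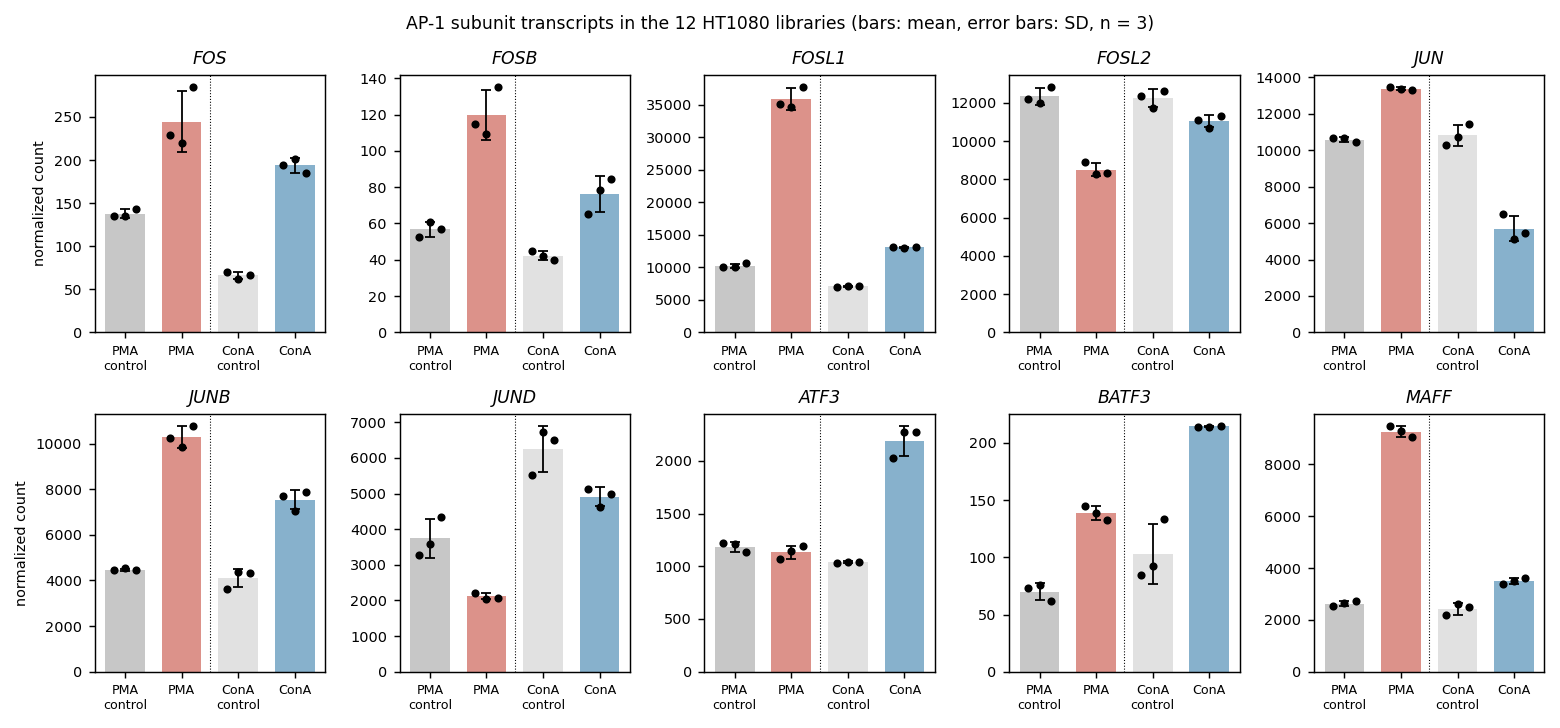
Normalized counts of the 10 AP-1 subunit transcripts (y axis, linear, from 0 and scaled per gene) in PMA controls, PMA, ConA controls and ConA; points are libraries, bars the mean and error bars the SD of 3. FOSL1 and MAFF are far above their controls with PMA, and ATF3 is above its controls with ConA. JUN is above its controls with PMA and below them with ConA. The dotted line parts the 2 experiments, which were normalized separately.

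Among the FOS family, FOSL1 moved most with PMA. It stood at 10043, 10010 and 10607 normalized counts in the 3 controls and at 35123, 34622 and 37787 in the 3 PMA libraries. With ConA it went from 6968, 7079 and 7173 in controls to 13178, 12922 and 13102. No treated library overlapped a control in either experiment, and the ConA libraries lay close together. The rise with PMA was 3.51-fold (log2 1.81, SE 0.04, adjusted p = 3.87e-11). The ConA value was 1.85-fold (log2 0.89, SE 0.05, adjusted p = 1.23e-09), which is under the fold threshold. The difference between these changes was 0.92 on the log2 scale (SE 0.06, adjusted p = 8.52e-10), larger with PMA.

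FOSL2 (Fra-2), the closest relative of FOSL1, lay below its controls with both treatments. It stood at 12176, 11990 and 12834 in PMA controls and 8885, 8282 and 8344 with PMA. In ConA controls it stood at 12354, 11723 and 12625, and with ConA at 11081, 10694 and 11307. The groups were apart in both experiments, by a wide margin with PMA and a narrow one with ConA. The log2 fold change was -0.54 with PMA (SE 0.04, adjusted p = 6.82e-07) and -0.15 with ConA (SE 0.05, adjusted p = 0.0198), neither past the fold threshold. The ratio of FOSL1 to FOSL2 normalized counts within a library therefore went from 0.829 ± 0.005 to 4.22 ± 0.29 with PMA (SD, n = 3), and from 0.579 ± 0.022 to 1.19 ± 0.03 with ConA.

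FOS itself, the founding member of the family, was rare 24 h after treatment. It stood at 135, 135 and 144 normalized counts in PMA controls and 229, 220 and 285 with PMA, and at 69.8, 62.0 and 67.1 in ConA controls and 194, 202 and 185 with ConA. Treated libraries were above all controls in both experiments, and the highest PMA value was in PMA 3, the library with the largest sum of T and NK cell markers without IL7R. The rise with ConA was 2.89-fold (log2 1.53, SE 0.13, adjusted p = 1.28e-07), the largest change of any member with ConA. The PMA value was 1.76-fold (log2 0.81, SE 0.11, adjusted p = 7.83e-05), under the fold threshold, and 0.70 on the log2 scale without PMA 3 (adjusted p = 3.10e-04). The change with PMA minus that with ConA was -0.72 (SE 0.16, adjusted p = 0.00101), which did not pass the thresholds for a difference.

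FOSB, whose product also needs a JUN partner, was the least abundant member. It stood at 52.6, 60.8 and 56.9 in PMA controls and 115, 109 and 135 with PMA, then at 44.8, 42.0 and 40.1 in ConA controls and 65.1, 78.4 and 84.5 with ConA. The groups did not overlap, and PMA 3 again had the highest value. The log2 fold change with PMA was 1.06 (SE 0.14, adjusted p = 5.43e-05), a 2.09-fold rise that stood near both thresholds. The call was lost without PMA control 1, PMA control 2, PMA 1 or PMA 2 (log2 1.01 to 1.12, adjusted p = 1.83e-04 to 4.32e-04) and without PMA 3 (log2 0.97, adjusted p = 3.99e-04). With ConA the value was 0.82 (SE 0.18, adjusted p = 9.34e-04), not called. The difference between treatments was 0.24 (95% confidence interval -0.22 to 0.69, adjusted p = 0.353).

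The JUN family moved apart. JUN lay above its controls with PMA and below them with ConA, the only member on opposite sides with no overlap in either experiment. Its normalized counts were 10647, 10655 and 10452 in PMA controls and 13477, 13386 and 13279 with PMA. In ConA controls they were 10264, 10717 and 11451, and with ConA 6500, 5153 and 5454. Both pairs of groups were clearly apart, with ConA 1 nearer to the controls than the other ConA libraries. The log2 fold change was 0.34 with PMA (SE 0.03, adjusted p = 5.10e-06) and -0.93 with ConA (SE 0.08, adjusted p = 1.09e-07), neither past the fold threshold. Without ConA 1 the ConA value was -1.03 (adjusted p = 4.67e-10), past both thresholds. The difference between the changes was called, at 1.27 (SE 0.09, adjusted p = 2.57e-09).

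JUNB, often a weaker activator than JUN and able to restrain it, was above its controls with both treatments. It stood at 4439, 4523 and 4458 in PMA controls and 10245, 9833 and 10764 with PMA, and at 3636, 4363 and 4308 in ConA controls and 7704, 7052 and 7881 with ConA. There was no overlap in either experiment. The rise with PMA was 2.30-fold (log2 1.20, SE 0.04, adjusted p = 5.54e-10). The ConA value was 1.84-fold (log2 0.88, SE 0.07, adjusted p = 9.16e-08), under the fold threshold, and the difference was 0.32 (SE 0.09, adjusted p = 0.00509). Exons of JUNB overlap those of HOOK2 on the opposite strand in GENCODE 29, and whether counting used the strand is not given in the sources used here. HOOK2 stood at 577 to 625 in PMA controls, 405 to 467 with PMA, 672 to 831 in ConA controls and 574 to 670 with ConA. The ConA groups were only narrowly apart. The part of HOOK2 reads in the JUNB values was not tested.

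JUND, generally the steadily expressed member of the family, was lower in treated libraries. It stood at 3287, 3583 and 4354 in PMA controls and 2206, 2051 and 2076 with PMA, and at 5519, 6735 and 6489 in ConA controls and 5136, 4614 and 4992 with ConA. The groups did not overlap, though the controls were widely spread. The log2 fold change was -0.82 with PMA (SE 0.08, adjusted p = 6.14e-06) and -0.34 with ConA (SE 0.07, adjusted p = 7.50e-04), neither past the fold threshold, and the difference was -0.47 (SE 0.12, adjusted p = 0.00273).

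**Figure D2:**
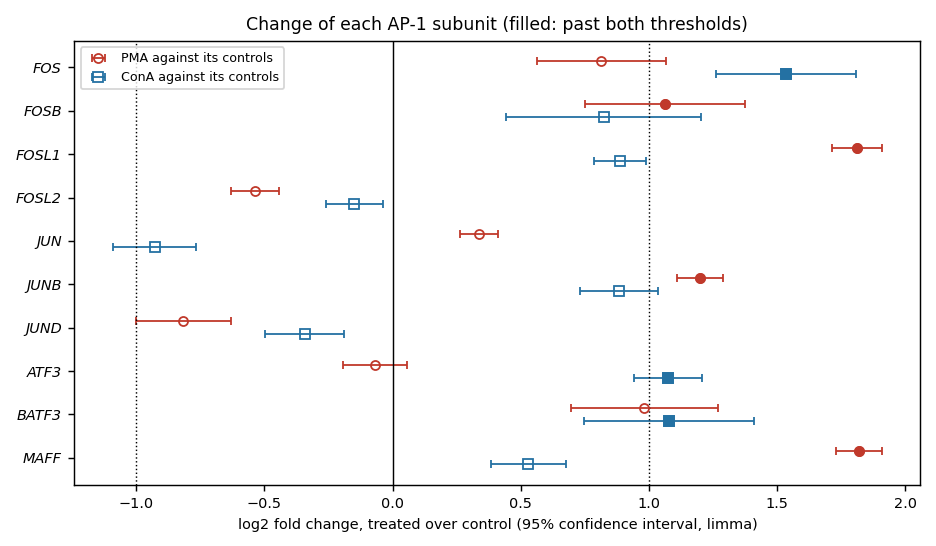
Log2 fold change of each member, treated over the controls of its own experiment (x axis), with 95% confidence intervals from limma; circles are PMA, squares ConA, and filled symbols passed both thresholds, the dotted lines being the fold threshold of 1. FOSL1 and MAFF stand at 1.81 and 1.82 with PMA, FOS at 1.53 with ConA, and JUN on opposite sides of 0.

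ATF3, a stress-induced member of the ATF group, was called with ConA and not with PMA. Its normalized counts were 1220, 1209 and 1132 in PMA controls and 1066, 1143 and 1191 with PMA. In ConA controls they were 1030, 1043 and 1043, and with ConA 2028, 2269 and 2272. The PMA groups overlapped, and the ConA groups were far apart. The log2 fold change with PMA was -0.07 (95% confidence interval -0.19 to 0.06, adjusted p = 0.316). With ConA it was 1.07 (SE 0.06, adjusted p = 3.09e-09), a 2.10-fold rise, and the difference between the treatments was called at -1.14 (SE 0.08, adjusted p = 3.00e-09). Within a library, ATF3 normalized counts were 0.0962 ± 0.0047 of those of JUN in ConA controls and 0.390 ± 0.068 with ConA (SD, n = 3).

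BATF3, a small basic leucine zipper protein best known from dendritic cells and lymphocytes, was low in all groups. It stood at 72.8, 76.0 and 61.4 in PMA controls and 145, 139 and 133 with PMA, and at 84.4, 92.0 and 133 in ConA controls and 214, 214 and 215 with ConA. Treated libraries were above controls in both experiments, PMA 3 was the lowest PMA library here, and ConA control 6 stood above the other 2 controls. The log2 fold change was 0.98 with PMA (SE 0.13, adjusted p = 5.14e-05), just under the fold threshold, and 1.08 with ConA (SE 0.15, adjusted p = 2.86e-05), a 2.11-fold rise. The ConA call was lost without ConA control 4 (log2 0.95, adjusted p = 6.67e-05), and without ConA control 5, ConA 2 or ConA 3 (log2 1.01 to 1.08, adjusted p = 1.64e-04 to 2.41e-04). The 2 changes could not be told apart, with a difference of -0.09 (95% confidence interval -0.54 to 0.35, adjusted p = 0.718).

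MAFF moved with PMA as far as FOSL1 did. It stood at 2523, 2644 and 2711 in PMA controls and 9470, 9280 and 9047 with PMA, and at 2176, 2615 and 2511 in ConA controls and 3402, 3494 and 3620 with ConA. The PMA libraries were far above their controls and the ConA libraries somewhat above theirs. The rise with PMA was 3.53-fold (log2 1.82, SE 0.04, adjusted p = 1.93e-11). The ConA value was 1.44-fold (log2 0.53, SE 0.07, adjusted p = 9.08e-06), and the difference between the changes was called at 1.29 (SE 0.08, adjusted p = 5.06e-10).

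Differences between the treatments were thus called for JUN and MAFF, higher with PMA, and for ATF3, higher with ConA. Of 15030 genes tested, 3.67% were called in the first direction and 6.89% in the second. The adjusted p was at most 0.05 for 8 of 10 members, where it was for 61.1% of all genes, the exceptions being FOSB and BATF3. No library left out, and no other setting tried, ended any of these 3 calls.

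Levels of different members were compared per length, as normalized count per kb of the longest principal GENCODE 29 transcript. The order rests on these lengths, such as 1669 bases for FOSL1 and 6708 for FOSL2, whose shortest coding transcripts have 584 and 889. Before division by length, FOSL2 stood above FOSL1 in both control groups. Mean normalized counts were 12333 against 10220 in PMA controls and 12234 against 7073 in ConA controls. Other lengths were not tried. FOSL1 was first in all 4 groups, from 4238 ± 61 per kb in ConA controls to 21476 ± 1019 with PMA (SD, n = 3). FOSB was last, between 11.2 ± 0.6 and 31.7 ± 3.6, preceded by FOS and BATF3. The middle of the order moved. In PMA controls JUN followed FOSL1 at 2990 ± 33, then JUNB at 2458 ± 24, JUND at 2008 ± 296 and FOSL2 at 1839 ± 66, and the ranges of JUND and FOSL2 overlapped, as did those of BATF3 and FOS further down. With PMA, JUNB came next at 5649 ± 256, and JUN at 3780 ± 28 and MAFF at 3721 ± 85 overlapped. In ConA controls JUND at 3354 ± 345 overlapped JUN at 3054 ± 169. With ConA, JUNB at 4146 ± 240 and JUND at 2638 ± 145 stood above FOSL2 at 1644 ± 46 and JUN at 1611 ± 200, which overlapped. All other neighbours in these orders were apart, ATF3 being seventh throughout.

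Summed per kb, the FOS family went from 8041 ± 269 to 22889 ± 1027 with PMA and from 6104 ± 103 to 9583 ± 115 with ConA (SD, n = 3). The JUN family went from 7456 ± 266 to 10562 ± 253 with PMA, while its sums overlapped with ConA, at 8661 ± 695 in controls and 8394 ± 527 treated. Shares within a family do not depend on the scaling of a library, but they do depend on the transcript lengths used. JUNB took 33.0% ± 1.2 of the JUN family in PMA controls and 53.5% ± 1.2 with PMA, and 26.0% ± 0.6 in ConA controls and 49.4% ± 1.4 with ConA, so it held the largest share after both treatments. The share that others gave up differed. JUND went from 26.9% ± 3.0 to 10.7% ± 0.4 with PMA and from 38.7% ± 1.2 to 31.4% ± 0.3 with ConA. JUN went from 40.1% ± 1.8 to 35.8% ± 1.0 with PMA and from 35.3% ± 1.7 to 19.2% ± 1.5 with ConA.

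In the FOS family, FOSL1 went from 76.2% ± 0.1 to 93.8% ± 0.3 with PMA and from 69.4% ± 0.8 to 81.7% ± 0.3 with ConA. FOSL2 went from 22.9% ± 0.1 to 5.55% ± 0.36 and from 29.9% ± 0.8 to 17.2% ± 0.3. FOS held 0.794% ± 0.004 in PMA controls and 0.493% ± 0.048 with PMA, a smaller share although its level was higher, and 0.503% ± 0.029 and 0.937% ± 0.050 in the ConA experiment. Treated and control shares were apart for 13 of 14 shares, the exception being FOSB with ConA (0.184% ± 0.013 and 0.210% ± 0.028). Shares of a family are tied, since a gain of 1 member lowers the others, so these are not separate results. The normalized counts of single genes were apart for 67.9% of all genes tested with PMA and 69.3% with ConA. With 3 libraries against 3, a two-sided exact permutation test cannot give a p below 0.1, which these 13 reached (adjusted p = 0.108 over the 14).

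**Figure D3:**
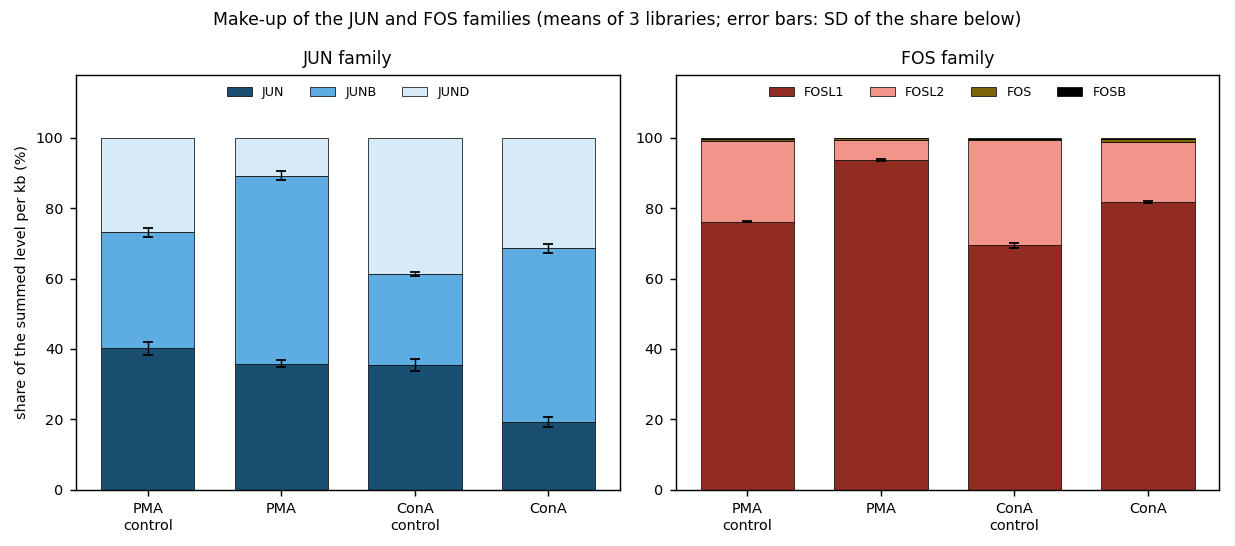
Share of each gene in the summed level per kb of the JUN family (left) and the FOS family (right), in percent (y axis), as means of 3 libraries per group; error bars are the SD of the share below them, drawn for JUN, JUNB and FOSL1. JUNB takes 53.5% with PMA and 49.4% with ConA, and FOSL1 takes 93.8% with PMA and 81.7% with ConA.

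Other basic leucine zipper genes, many of which can pair with AP-1 subunits, formed a list of 30, of which 28 were tested. With PMA 1 rose and 2 fell (median log2 0.06), near the shares of 4.03% and 4.61% over all genes. BATF, at a mean of 7.52 normalized counts in PMA controls and 14.3 with PMA, passed the filter on low values (a mean of at least 10) only through the treated group. Without it 27 were tested with PMA, with the same counts of calls (median 0.06). With ConA 4 rose and 3 fell (median 0.13), where 5.83% and 2.88% of all genes did. With PMA, CEBPB, a factor of inflammatory gene expression, rose by 1.26 on the log2 scale (SE 0.16, adjusted p = 3.56e-05), and CEBPA stood at -1.15 (SE 0.17, adjusted p = 1.27e-04, not called). The CEBPB call was lost without PMA control 1, PMA control 2, PMA 1 or PMA 2 (log2 1.10 to 1.28, adjusted p = 1.34e-04 to 3.60e-04). With ConA the largest values were those of BATF2, a relative of BATF3 known from interferon responses, at 3.00 (SE 0.08, adjusted p = 5.01e-13), NFE2L3, a CNC factor that pairs with small MAF proteins such as MAFF, at 1.89 (SE 0.05, adjusted p = 7.13e-13), and MAF at -1.75 (SE 0.19, adjusted p = 2.34e-06). BATF2 went from 340 ± 24 to 2730 ± 262 normalized counts and NFE2L3 from 5406 ± 188 to 20062 ± 798 (SD, n = 3).

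Of 27 transcripts of kinases and factors upstream of AP-1, 1 rose and none fell with PMA (median 0.12), where 4.03% and 4.61% of all genes did, and 1 rose and 1 fell with ConA (median 0.05), where 5.83% and 2.88% did. These counts are near those shares. The adjusted p was at most 0.05 for 22 of the 27 with PMA, where 32.8% of all genes were higher and 30.5% lower at that p. With ConA it was for 16 of the 27, where 32.8% and 32.5% of all genes were. ELK3, a ternary complex factor of the family that acts at serum response elements such as that of FOS, rose with PMA (log2 1.06, SE 0.04, adjusted p = 3.15e-09) but stood at 0.92 under quantile normalization, which is not a call. PRKCA, which encodes a phorbol ester receptor, fell with ConA (log2 -1.91, SE 0.06, adjusted p = 4.11e-12), from 6189 ± 444 to 1640 ± 61 normalized counts. With PMA it was also lower, at -0.78 (SE 0.04, adjusted p = 4.25e-08), under the fold threshold. MAP3K1, a kinase upstream of JNK, rose with ConA (log2 1.11, SE 0.12, adjusted p = 1.48e-06), a call lost without a variance trend (adjusted p = 0.00103). RPS6KA3, an ERK-dependent kinase, stood at 0.98 with PMA (SE 0.04, adjusted p = 2.40e-09), under the fold threshold. MAPK10, with a mean of 16.3 normalized counts in PMA controls and 22.7 in ConA controls, had the largest value with PMA, -1.88 (SE 0.57, adjusted p = 0.0127), and 0.80 with ConA (SE 0.24, adjusted p = 0.00922), neither called. With PMA its mean was 4.12, so it passed the filter on low values only through its controls. It is among the 22 counted above with PMA. Without it 26 were tested with PMA, with the same counts of calls (median 0.12).

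Among 18 genes for turnover and cofactors of AP-1, 1 rose with each treatment and none fell (medians 0.13 with PMA and 0.02 with ConA), near the shares of all genes given above. With PMA it was ZFP36, which encodes tristetraprolin, a protein that speeds the decay of AU-rich mRNAs such as that of FOS, at 1.70 (SE 0.07, adjusted p = 2.46e-09), or 459 ± 34 to 1497 ± 99 normalized counts. With ConA it was its relative ZFP36L2 at 1.31 (SE 0.06, adjusted p = 4.14e-10), while ZFP36 stood at 0.72 (SE 0.09, adjusted p = 5.53e-06). COP1 and ITCH, ubiquitin ligases that act on JUN proteins, stood at 0.40 and 0.28 with PMA, and CSNK2A1 at -0.53 with ConA, none of them called.

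Known AP-1 target genes had the largest median of the 4 lists with both treatments. The lists were chosen with earlier results of these data known, so the counts are a description and not a test. Of 30 tested with PMA, 18 rose and 1, COL1A2, fell (median log2 1.23), where 4.03% and 4.61% of all genes did. Of 29 tested with ConA, 9 rose and 1, VEGFA, fell (median 0.41), where 5.83% and 2.88% did. MMP10 with PMA and CSF2 with ConA passed the filter on low values through the treated group, where they are high. Without them 17 of 29 rose with PMA (median 1.06) and 8 of 28 with ConA (median 0.39). The COL1A2 call was lost without PMA control 1 (log2 -1.03, adjusted p = 1.19e-04) and without PMA 2 (log2 -0.96). MMP10, a stromelysin, stood at a mean of 1.51 normalized counts in PMA controls and 182 with PMA, at least 67.0-fold higher when set against 3 estimated reads per library, and the list's median stays at 1.23 with MMP10 at that bound. CXCL8, a neutrophil-attracting chemokine, rose by 5.80 on the log2 scale with PMA (SE 0.04, adjusted p = 3.67e-15) and by 4.08 with ConA (SE 0.11, adjusted p = 3.72e-13). MMP1, the interstitial collagenase with a classic AP-1 site in its promoter, rose by 5.65 with PMA (SE 0.06, adjusted p = 3.41e-14). It rose by 1.78 with ConA (SE 0.12, adjusted p = 1.35e-08), a call lost without a variance trend (adjusted p = 2.60e-04). With ConA the largest value was that of MMP13, another collagenase, at 5.77 (SE 0.16, adjusted p = 7.27e-13), followed by CXCL8 and then by IL6 at 3.94 (SE 0.09, adjusted p = 9.71e-14). Both MMP13 and IL6 were also called with PMA, at 2.32 (SE 0.27, adjusted p = 1.60e-05) and 5.56 (SE 0.06, adjusted p = 6.35e-14).

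**Figure D4:**
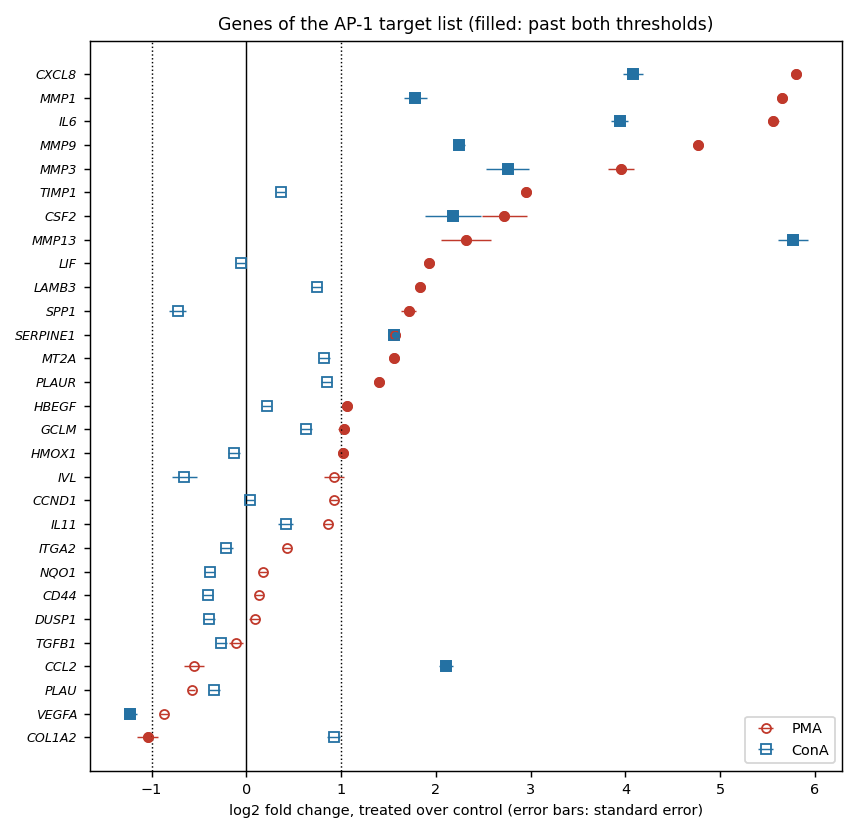
Log2 fold change, treated over control (x axis), of the 29 genes of the AP-1 target list tested in both experiments, ordered by the PMA value; circles are PMA, squares ConA, bars the standard error, and filled symbols passed both thresholds (dotted lines at -1 and 1). MMP10, near 0 in PMA controls, is left out. CXCL8 and MMP1 stand highest with PMA at 5.80 and 5.65, and MMP13 highest with ConA at 5.77.

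The genes most like 2 of the members were found by Pearson's r over the 12 libraries, on log2 values centred on the controls of the same experiment, among 14661 genes, as a description with no test. The libraries form groups, so r mainly reflects how alike the changes are. That the genes share with the member the treatment of the larger change follows from how they were picked. For MAFF, which moved most with PMA, they were XRCC1 (r = 0.997), IL1B (0.995), C9orf72 (0.995), EGR1 (0.994) and CXCL3 (0.994). All of these had a larger change with PMA than with ConA, EGR1 for example with log2 fold changes of 3.63 and 0.91. For FOS, which moved most with ConA, they were CNTNAP1 (r = 0.993), RRM2 (0.992), CIP2A (0.991), GBP6 (0.991) and STAT5A (0.990), all with the larger change with ConA, GBP6 for example at 4.87 against 2.70 with PMA.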

How the data were processed

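Polyadenylated RNA of HT1080 cells was sequenced by a service company in 12 libraries. The authors deposited 1 table per experiment, in which each gene symbol has a signal value, its normalized count. They look like estimated counts divided by 1 factor per library, set for each table apart. The submitters' processing notes name Partek, STAR, Bowtie2 and DESeq2 and the builds hg19 and mm10, with no role given. Counting settings and strandedness are not given in the sources used here. Between 80.0% and 82.3% of low values became whole under the best factor of a library (within 0.02 of a whole number), so no count test was run, and precision rests on the spread between 3 libraries.

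Treated and control libraries were compared with limma 3.58.1 (R 4.3.3, variance trend) on log2(value + 1), for genes with a mean of at least 10, with Benjamini-Hochberg adjustment over all genes tested. The difference between treatments was fitted over the 12 libraries with 4 group means. The procedure was run on simulated data with changes well past the fold threshold, so that run does not cover calls near it. Alternatives covered the pseudocount (0.1 and 10), the filter (none, or a minimum mean of 50), median centring or quantile normalization, no variance trend, 1 fit of all libraries, the thresholds, the replicate number as a block and leaving out each library. The text names all 10 members, the 3 genes of each pathway list with the largest absolute log2 fold change per treatment, and the 5 genes most correlated with the member that changed most with each treatment, except 1 list gene that is not reported here. Members and lists were chosen with earlier results of these data known. List genes named as the only call in 1 direction, for a lost call or for passing the filter through 1 group, and the T and NK cell sum without IL7R, were chosen after their values were seen. Transcript lengths came from GENCODE 29. Tables and plots used Python 3.11.15, pandas 2.3.3, scipy 1.17.1 and matplotlib 3.10.9.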

Additional observations from a re-analysis of the deposited data

Results flagged for a closer look

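For 3 members the PMA and ConA changes were unequal by a test of the difference itself (limma, Benjamini-Hochberg adjusted over 15030 genes). JUN differed by 1.27 on the log2 scale (95% confidence interval 1.07 to 1.46, adjusted p = 2.57e-09), being higher than its controls in 3 of 3 PMA libraries and lower than its own in 3 of 3 ConA libraries. MAFF differed by 1.29 (1.12 to 1.46, adjusted p = 5.06e-10), higher in both experiments and more so with PMA. ATF3 differed by -1.14 (-1.32 to -0.96, adjusted p = 3.00e-09), higher in 3 of 3 ConA libraries with overlapping groups in the PMA experiment. Single libraries far from the rest of a group were not tested for, since each group has 3.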

How the results depend on the processing

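Of 540 values of single members under alternatives, 511 kept their direction and their side of the thresholds, 14 lost their call, 13 gained one and 2 changed sign. Both sign changes were in the BATF3 difference, which was 0.31 under quantile normalization (adjusted p = 0.212) and from -0.29 to 0.04 with 1 library left out, turning positive without ConA control replicate 4 (0.0353, adjusted p = 0.896). With no fold threshold, 9 members were called with PMA, 7 with ConA and 5 in the difference, in place of 4, 3 and 3, as dropping a criterion must allow. Leaving out 1 library gave 3 to 4 calls with PMA, 2 to 4 with ConA and 3 in every case for the difference. Besides the libraries named above, the FOSB call with PMA was lost at a pseudocount of 10 (log2 0.96), without a variance trend (adjusted p = 3.76e-04) and under the block, and the ConA call of BATF3 under quantile normalization (log2 0.98) and without a variance trend (adjusted p = 0.00229). BATF3 was called with PMA under quantile normalization, at 1.20. Quantile normalization moved the split of all calls from 611 higher and 699 lower to 611 and 568 with PMA, and from 882 and 436 to 771 and 499 with ConA. The cause of these shifts was not tested. Among genes of the pathway lists, calls lost with 1 library left out, besides those of CEBPB and COL1A2, were those of CEBPD, GCLM, HMOX1 and MMP13 with PMA and of BACH2 and CSF2 with ConA. Calls lost without a variance trend included those of CEBPB, COL1A2 and MMP13 with PMA (adjusted p = 0.00440, 6.03e-04 and 5.90e-04). With ConA they included those of MAF, VEGFA and CSF2 (adjusted p = 3.63e-04, 1.28e-04 and 4.98e-04). The CEBPB call was also lost under quantile normalization (log2 1.11, adjusted p = 1.21e-04). With the replicate number as a block, 3 members were called with PMA (FOSB: adjusted p = 1.47e-04), beside 597 genes higher and 667 lower. Same-numbered libraries had correlations of -0.06, 0.10 and 0.10 in their deviations from the group means, and not every library correlated best with its own number, so the numbers were not taken as pairs. ConA and its controls share no replicate numbers, so no paired analysis was possible there. FOS, FOSB and BATF3 stood between 40.1 and 285 normalized counts per library, which limits their precision.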

Other observations

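The untreated groups of the 2 experiments, both HT1080 cells in the same medium, differed in the make-up of the AP-1 families. Ratios within a library do not depend on its scaling. The ratio of FOS to FOSL2 normalized counts was 0.0111 to 0.0113 in PMA controls and 0.00529 to 0.00565 in ConA controls. JUND to JUN was 0.309 to 0.417 in PMA controls and 0.538 to 0.629 in ConA controls, and FOSL1 to FOSL2 was 0.825 to 0.835 against 0.564 to 0.604. These ranges do not overlap, and how often the ratios of other genes differ in this way was not counted. The T and NK cell marker sum without IL7R also differed, at 1009 to 1145 in PMA controls and 34.1 to 52.0 in ConA controls. The part of such RNA in the FOS ratio was not tested. The experiment and anything done differently between the 2 cannot be told apart, and no test was made across them.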
